A study of Mus musculus with 12 samples.

Results

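The genes described here are those that the authors listed as bound by Chd8 and not by Chd7 in oligodendrocyte precursor cells (OPCs), after removal of genes listed as bound by Chd7 in oligodendrocytes only. The Chd8-only list held 5342 symbols, of which 811 were also on the oligodendrocyte-only Chd7 list, and 4531 remained. Of these, 3777 (83.4%) were measured in the RNA sequencing table of 14107 genes, and 754 were not. The 754 included 154 symbols of predicted or Rik-type genes, 29 histone genes and 10 olfactory receptors. The lowest mean of any gene in the table was 20.8 counts, so an unmeasured gene may have been below that level or named differently. Matching without regard to letter case added 0 genes. The rule uses no expression value.

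RNA came from O4-positive cells of cortex and corpus callosum, isolated with magnetic beads from mouse pups at postnatal day 7. The 5 Chd7iKO libraries carried PDGFRaCre; Chd7flox/flox, and the 7 Control libraries carried Chd7flox/flox without Cre. Animals of both groups were given tamoxifen under the skin at 20 mg/ml, as 40 µl on postnatal day 1 followed by 30 µl on postnatal day 4. No library had Cre with unfloxed Chd7, so Cre and the loss of Chd7 cannot be told apart. By its name the Cre is driven from Pdgfra, a gene of the precursor lineage and also of some perivascular cells, so other cells in the sort may keep Chd7. The sources used here do not say how many pups stand behind each library. The p-values therefore reflect the variation among these samples, part of which may be technical.

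CHD8 and CHD7 are related ATP-dependent enzymes that move nucleosomes and bind near the start sites of active genes. CHD8 is among the genes most often mutated in autism, and CHD7 is the gene of CHARGE syndrome. Oligodendrocyte precursors divide, leave the cell cycle and then make myelin, and both enzymes are known to act in this lineage. The comparison of Chd7iKO and Control cells asks how their transcripts differ when Chd7 is targeted.

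Promoter sequences (RefSeq table, GRCm38.p6) are shown for 3 of the 8 largest rises and 2 of the 8 largest falls. Each runs from 250 bases before to 50 bases after the annotated start, 5′ to 3′ on the gene's strand. Usp18, the third largest rise, is named only, and no sequence is shown for Mc4r, whose fall was larger than that of Gucy2f. The windows are chr10:79664309-79664608 (plus strand) for Madcam1, chr4:89310983-89311282 (minus) for Cdkn2b, chr2:121357526-121357825 (plus) for Ckmt1, chr1:135818348-135818647 (plus) for Lad1 and chrX:142196887-142197186 (minus) for Gucy2f. Capitals mark matches to any of 8 motifs, on either strand.
Madcam1: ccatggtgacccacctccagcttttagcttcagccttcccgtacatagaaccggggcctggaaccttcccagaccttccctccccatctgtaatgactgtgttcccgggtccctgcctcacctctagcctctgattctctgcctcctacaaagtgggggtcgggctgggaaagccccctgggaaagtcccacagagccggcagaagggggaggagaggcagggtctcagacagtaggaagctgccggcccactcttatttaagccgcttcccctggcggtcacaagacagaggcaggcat
Cdkn2b: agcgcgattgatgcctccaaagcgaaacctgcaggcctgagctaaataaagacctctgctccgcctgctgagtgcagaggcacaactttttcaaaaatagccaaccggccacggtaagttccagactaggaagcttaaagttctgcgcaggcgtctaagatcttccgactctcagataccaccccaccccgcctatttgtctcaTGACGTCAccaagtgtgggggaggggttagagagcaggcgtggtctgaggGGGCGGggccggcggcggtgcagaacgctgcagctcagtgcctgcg
Ckmt1: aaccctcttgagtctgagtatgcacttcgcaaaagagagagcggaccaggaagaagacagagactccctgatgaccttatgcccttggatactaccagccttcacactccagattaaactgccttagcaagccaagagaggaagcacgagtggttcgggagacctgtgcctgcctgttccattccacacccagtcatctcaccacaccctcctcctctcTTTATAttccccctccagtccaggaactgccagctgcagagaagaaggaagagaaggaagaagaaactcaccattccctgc
Lad1: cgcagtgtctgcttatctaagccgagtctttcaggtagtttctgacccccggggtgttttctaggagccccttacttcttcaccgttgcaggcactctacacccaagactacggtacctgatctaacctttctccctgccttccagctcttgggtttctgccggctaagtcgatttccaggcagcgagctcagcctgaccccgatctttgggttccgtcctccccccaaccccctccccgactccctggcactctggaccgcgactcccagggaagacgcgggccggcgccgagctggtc
Gucy2f: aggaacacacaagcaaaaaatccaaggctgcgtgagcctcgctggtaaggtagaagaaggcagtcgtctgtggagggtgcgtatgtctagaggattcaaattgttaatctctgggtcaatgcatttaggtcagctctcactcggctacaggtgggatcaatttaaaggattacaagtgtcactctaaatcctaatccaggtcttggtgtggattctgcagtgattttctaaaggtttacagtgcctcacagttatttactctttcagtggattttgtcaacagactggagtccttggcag
The motifs searched were the GC box (GGGCGG), the ETS motif (CCGGAAGT), the palindrome of the factor NRF1, the cAMP response element (TGACGTCA), the CCAAT box (those 5 letters), the YY1 motif (AAGATGGC), the TATA box (TATAAA) and the E-box (CACGTG), and no motif is contained in another. The Cdkn2b window held 1 cAMP response element and 1 GC box. Among all 27025 genes with a promoter in the table, a cAMP response element was found in 1.88% and a GC box in 35.9%. The Ckmt1 window held 1 TATA box sequence, on the opposite strand, and that sequence was found in 14.2% of all promoters. Ckmt1 has 2 promoter entries, and only the first was used, as for every gene with more than 1. None of the 8 sequences occurs in the windows of Madcam1, Lad1 and Gucy2f. The other shares were 37.9% for the CCAAT box, 7.24% for the E-box, 4% for the ETS motif, 2.88% for the YY1 motif and 0.977% for the NRF1 palindrome. The windows of Cdkn2b and Lad1 held 18 CpG each, those of Madcam1, Gucy2f and Ckmt1 held 8, 5 and 4, and the median of all promoters was 7.

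The targeted gene was checked first. Chd7 had 281, 235, 258, 207 and 227 CPM (counts put on a common library size after TMM scaling) in Chd7iKO libraries and 179 to 270 CPM in Control libraries, with a median of 240 CPM. The groups overlapped, with a log2 fold change of 0.03 (SE 0.10, edgeR quasi-likelihood test, adjusted p = 0.837). Reads were summed over the whole gene and the floxed exons are not given, so these values do not check the deletion. Chd8 averaged 163 ± 19.8 CPM in Chd7iKO cells (SD, n = 5) and 164 ± 18.4 CPM in Control cells (n = 7), a log2 fold change of -0.01 (SE 0.09). Total estimated counts were 30384507 to 35512310 per library.

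Markers of the labelled cells were present, and markers of other cells moved with genotype. The summed level of 6 precursor markers was 10861 to 12110 CPM in Chd7iKO libraries and 12522 to 14685 CPM in Control libraries, and 4 of the 6 were lower. Of 9 markers of committed and immature oligodendrocytes 6 were lower, with sums of 6784 to 9188 CPM in Chd7iKO and 9758 to 12562 CPM in Control libraries. Microglial markers summed to 258 to 346 CPM in Chd7iKO and 129 to 303 CPM in Control libraries, and 5 of 6 were higher. Markers of mural cells, which surround small vessels, summed to 205 to 572 CPM and 77.2 to 254 CPM in Chd7iKO and Control libraries, and 4 of 4 were higher. Endothelial markers summed to 128 to 314 CPM in Chd7iKO and 81.2 to 191 CPM in Control libraries, with 3 of 4 higher. Astrocyte sums overlapped (1609 to 2453 CPM in Chd7iKO, 1398 to 2826 CPM in Control), as did neuronal sums (92.2 to 146 CPM in Chd7iKO, 106 to 123 CPM in Control). Every listed marker was measured, and the part of these cells in the results was not tested. In bulk RNA, fewer cells of a type and less RNA per cell cannot be told apart.

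Of the 3777 measured Chd8-bound genes without Chd7, 571 (15.1%) were higher and 474 (12.5%) lower in Chd7iKO cells (edgeR, adjusted p under 0.05). Among all 14107 tested genes the shares were 15.8% higher and 13.8% lower, and 29.5% were called in either direction, against 27.7% of the Chd8-bound genes. The median log2 fold change was -0.0021 (quartiles -0.12 and 0.147), and that of all tested genes was 0.0014. With scaling to library totals in place of TMM, the split was 642 higher and 349 lower, or 64.8% higher among called genes against 54.6% with TMM, and the median of all genes moved to 0.03. The share of calls thus lay near the background, with many small changes in both directions and no common shift.

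Strong changes were mostly rises. At least 2-fold differences were found in 52 higher (1.38%) and 7 lower (0.185%) genes of the list, and the background shares were 1.94% and 0.262% of all tested genes (273 and 37 genes). The median absolute log2 fold change of called genes was 0.387 here, 0.418 over all called genes and 0.617 among genes on no binding list. In 235 genes (6.22%) every Chd7iKO library lay above every Control library, and in 205 (5.43%) every one lay below. The same was seen in 6.2% and 6.32% of all tested genes.

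Genes on no binding list served as the comparison at matched expression. All 3674 of them included 20.3% higher and 11.3% lower genes, and when weighted to the 10 expression bins of the Chd8-bound genes they gave 17.3% higher and 14.3% lower. The 4905 genes with both Chd7 and Chd8 in precursors had 12.5% higher and 16.2% lower, without weighting for expression. In the lowest expression bin, 20.6% of Chd8-bound genes without Chd7 were higher, 18.4% of those with both factors and 23.3% of unlisted genes. In the next bin the higher shares were 22.8%, 13.1% and 26.8%. In the highest bin, 15.7% of Chd8-bound genes without Chd7 were lower, against 29.2% of genes with both factors and 19.9% of unlisted genes. Other bins went the other way. Counting the lowest bin as 1, the higher share was below that of genes with both factors in bins 5, 6 and 8. In bin 5 it was 15.1% against 17.4%. The lower share was below that of genes with both factors in bins 5, 9 and 10 only. In bin 8 it was above, at 19.3% against 17.8%. These shares are descriptions of 3 gene groups in 1 comparison, and their differences were not tested.

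**Figure D1:**
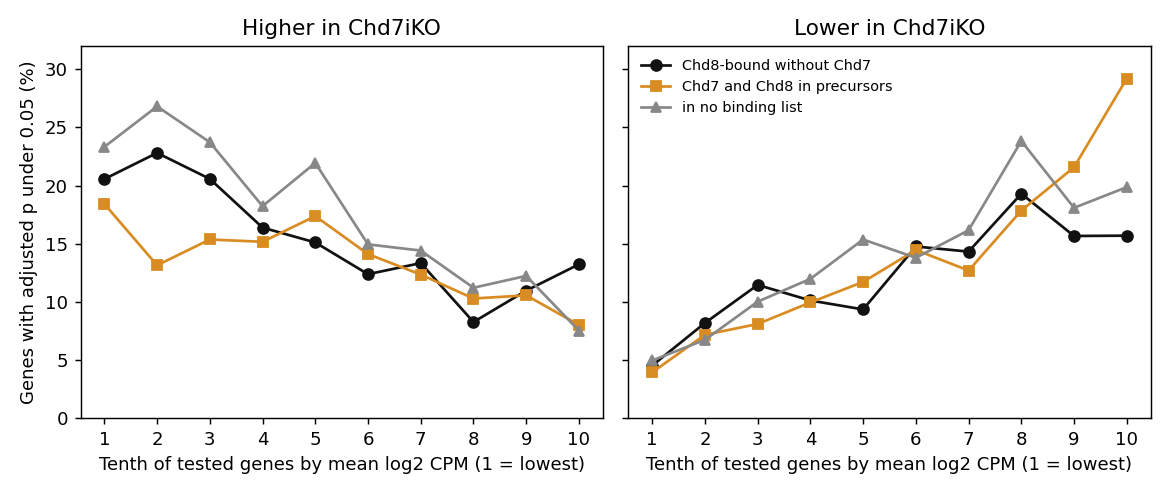
Share of genes called higher (left) and lower (right) in Chd7iKO libraries, in percent, by bin of mean log2 CPM (10 bins of equal size), for Chd8-bound genes without Chd7, genes with both factors in precursors, and genes on no binding list. In the second lowest bin the higher share is 22.8%, 13.1% and 26.8% for the 3 groups, and in the highest bin the lower share is 15.7%, 29.2% and 19.9%. In bins 5, 6 and 8 the higher share is larger for genes with both factors than for Chd8-bound genes without Chd7.

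Counting called genes whose mean reached 1 CPM, the largest rises were Madcam1, Cdkn2b, Usp18, Ckmt1, Egr3, Tnfaip6, Cdkn1a and Isg15. Madcam1, an adhesion molecule that binds integrins of lymphocytes, had 2.43, 2.49, 3.44, 2.99 and 3.13 CPM in Chd7iKO libraries and 0.115 to 0.808 CPM (median 0.372) in Control libraries. The log2 fold change reached 2.72 (SE 0.32, adjusted p by edgeR = 8.71e-05). Cdkn2b encodes p15, an inhibitor of the cyclin D kinases, and had 9.06, 8.33, 9.09, 9.76 and 11.96 CPM in Chd7iKO and 0.488 to 3.39 CPM (median 0.961) in Control libraries (log2 fold change 2.66, SE 0.40). Cdkn1a encodes p21, an inhibitor of several cyclin-dependent kinases and a p53 target. It had 147, 110, 109, 102 and 121 CPM in Chd7iKO libraries and 9.54 to 56.1 CPM (median 19.6) in Control libraries, a log2 fold change of 1.97 (SE 0.36, adjusted p by edgeR = 0.00151). In each of these genes the groups did not overlap.

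Some of the named rises encode proteins that are known from the interferon response, for which no list was counted. Isg15 encodes a ubiquitin-like protein that is joined to other proteins after interferon, and had 2.13, 3.71, 1.72, 3.81 and 3.99 CPM in Chd7iKO and 0.466 to 1.62 CPM (median 0.717) in Control libraries. Usp18 encodes the protease that removes it, and had 4.80, 6.80, 5.13, 7.50 and 8.24 CPM in Chd7iKO and 0.432 to 2.62 CPM (median 1.01) in Control libraries. The log2 fold changes were 1.96 (SE 0.30) for Isg15 and 2.49 (SE 0.36) for Usp18. Both genes were separate between the groups, although Control 6 came close to Chd7iKO 3 for Isg15. The RNA sensors Ddx58, which encodes RIG-I, and Dhx58, which encodes LGP2, rose by log2 fold changes of 0.94 (SE 0.10) and 0.86 (SE 0.13). Trim25, a ubiquitin ligase that acts on RIG-I, had 81.9, 83.8, 78.9, 85.5 and 82.8 CPM in Chd7iKO and 53.4 to 62.8 CPM (median 57.0) in Control libraries, a log2 fold change of 0.52 (SE 0.05, adjusted p by edgeR = 1.59e-05). Microglial markers rose in the same libraries, and their part in these changes was not tested.

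Ckmt1, the mitochondrial creatine kinase that stores energy as phosphocreatine, had 88.5, 72.9, 66.7, 71.1 and 81.6 CPM in Chd7iKO and 8.12 to 25.1 CPM (median 9.99) in Control libraries (log2 fold change 2.45, SE 0.29). The immediate early zinc finger factor Egr3 had 83.3, 47.8, 52.3, 49.7 and 65.6 CPM in Chd7iKO and 6.40 to 27.0 CPM (median 10.9) in Control libraries (2.10, SE 0.31). Tnfaip6, a secreted protein that binds hyaluronan, had 33.6, 30.1, 34.6, 37.5 and 46.9 CPM in Chd7iKO and 5.28 to 16.5 CPM (median 8.46) in Control libraries (1.98, SE 0.23). None of the 3 overlapped between groups. Across the 8 largest rises, Control 3 or Control 6 was the highest Control library in 8 of 8, and these 2 libraries were the top 2 in 5 of 8. Leaving out the highest Control libraries enlarges a rise by construction, and without these 2 the log2 fold changes were 3.29 for Madcam1, 3.56 for Cdkn2b, 3.10 for Usp18, 3.02 for Ckmt1, 2.47 for Egr3, 2.31 for Tnfaip6, 2.40 for Cdkn1a and 2.18 for Isg15.

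The largest falls were smaller than the largest rises. Lad1, ladinin, a protein of epithelial basement membranes, had 1.72, 1.08, 1.07, 0.762 and 1.03 CPM in Chd7iKO and 2.26 to 6.06 CPM (median 2.77) in Control libraries. The log2 fold change reached -1.65 (SE 0.29, adjusted p by edgeR = 0.00107). Cbln2, a secreted organiser of synapses, had 18.05, 14.4, 11.9, 14.5 and 13.1 CPM in Chd7iKO and 25.2 to 39.3 CPM (median 31.5) in Control libraries (-1.14, SE 0.13, adjusted p by edgeR = 6.65e-05). Both were separate between groups. Gucy2f, a membrane guanylate cyclase best known from photoreceptors, had 16.9, 10.3, 11.98, 11.5 and 8.74 CPM in Chd7iKO and 21.8 to 34.9 CPM (median 28.7) in Control libraries (-1.26, SE 0.16). Kcnj3, a subunit of potassium channels opened by G proteins, had 3.42, 6.23, 5.29, 6.07 and 6.85 CPM in Chd7iKO and 7.41 to 15.2 CPM (median 11.7) in Control libraries (-1.04, SE 0.20).

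The other falls were Mc4r, the melanocortin receptor of energy balance (log2 fold change -1.45, SE 0.37), the adhesion molecule Epcam (-1.15, SE 0.26), the receptor Gpr149 (-1.01, SE 0.18) and the palmitoyltransferase Zdhhc23 (-0.9998, SE 0.20). Mc4r had 1.39, 1.56, 0.487, 2.04 and 1.30 CPM in Chd7iKO and 1.61 to 5.64 CPM (median 3.03) in Control libraries, and Epcam had 15.6, 12.6, 12.4, 6.25 and 7.29 CPM in Chd7iKO and 12.2 to 31.6 CPM (median 26.3) in Control libraries. In these 2 genes the groups overlapped, with Control 2 low for Mc4r and Control 7 low for Epcam, while Gpr149 and Zdhhc23 were separate.

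**Figure D2:**
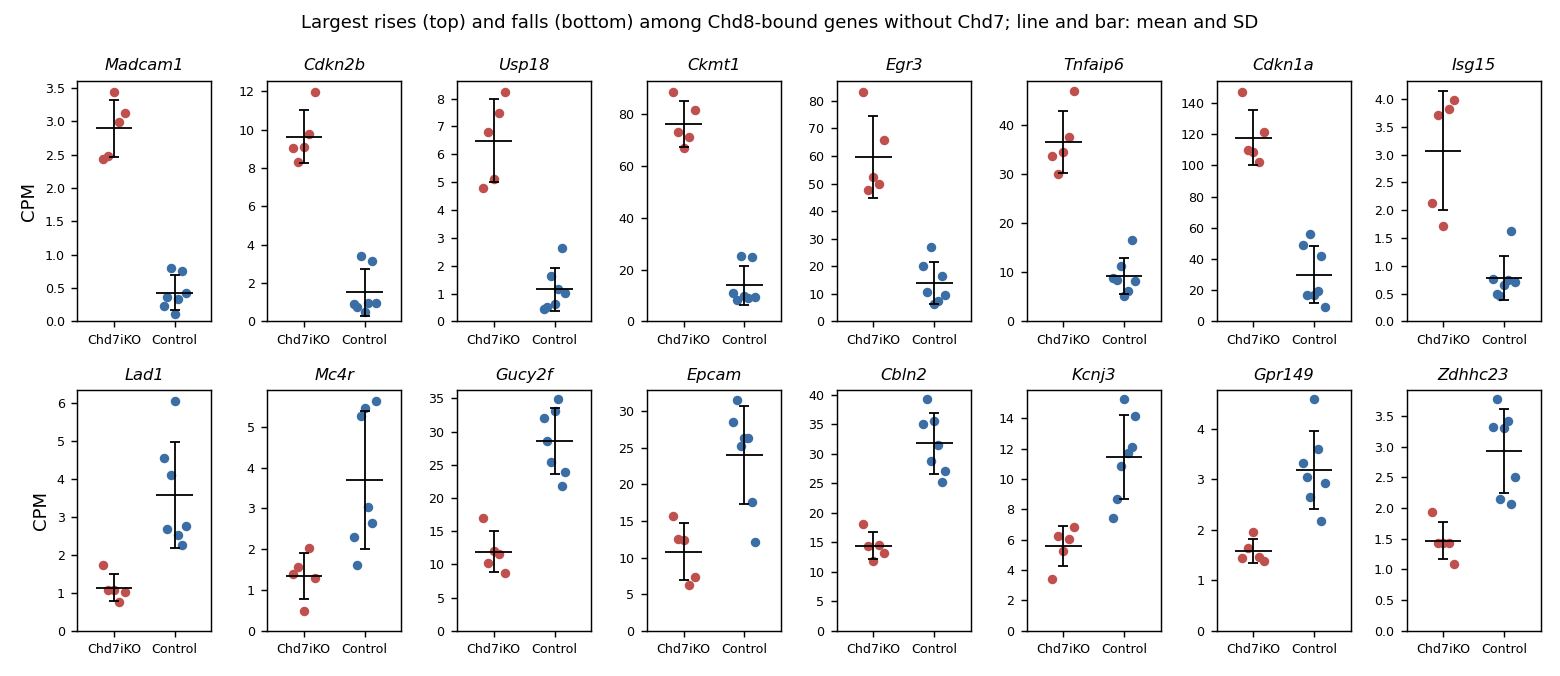
CPM in every library for the 8 largest rises (top row) and the 8 largest falls (bottom row), Chd7iKO left and Control right in each panel, with the group mean as a line and the SD as a bar, on axes that start at 0. All 8 rises are separate between groups, and of the falls Mc4r and Epcam overlap.

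The changes with the smallest p that were not yet named included both falls and rises. Gabrg1, a gamma subunit of the GABA-A receptor, had 45.8, 40.6, 39.0, 39.5 and 43.3 CPM in Chd7iKO and 69.5 to 77.2 CPM (median 73.8) in Control libraries, a log2 fold change of -0.82 (SE 0.05, adjusted p by edgeR = 2.38e-06). The ferroxidase ceruloplasmin, Cp, had 27.4, 26.5, 22.7, 25.9 and 24.9 CPM in Chd7iKO and 41.6 to 53.7 CPM (median 46.1) in Control libraries (-0.89, SE 0.07). Ccdc85a had 21.1 to 23.8 CPM in Chd7iKO and 33.1 to 38.6 CPM in Control libraries (-0.69, SE 0.06). In all 3 the libraries of a group stood close together and far from the other group. The protocadherin Pcdh11x had 130, 131, 131, 143 and 132 CPM in Chd7iKO and 198 to 286 CPM (median 250) in Control libraries (-0.89, SE 0.08). The fibrillin Fbn2, a protein of elastic fibres, went the other way, with 243, 176, 162, 170 and 212 CPM in Chd7iKO and 62.7 to 96.9 CPM (median 79.4) in Control libraries (1.29, SE 0.12, adjusted p by edgeR = 2.49e-05).

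Genes of the basic cell machinery gave few calls. Of 37 subunits of the mitochondrial ribosome 2 were lower (median log2 fold change -0.02), among them Mrps7 with 58.9 to 77.4 CPM in Chd7iKO and 79.3 to 91.6 CPM in Control libraries (-0.35, SE 0.06). Of 47 respiratory chain genes 1 was higher and 3 lower (median -0.05), among them Ndufv3 of complex I (-0.23, SE 0.05). Of 18 proteasome genes and 10 mitochondrial translocases, edgeR called 0 in either direction, with 2 and 0 at an unadjusted p under 0.05. DESeq2 called 1 proteasome gene and 0 translocases, and limma voom 1 of each. These shares lie below the background of 15.8% higher and 13.8% lower.

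Translation genes showed few calls too by edgeR over all libraries, against a background of 15.8% higher and 13.8% lower. For the ribosomal genes the count depended on the libraries and the method. Of 41 genes caught by the name stems of cytosolic ribosomal proteins 4 were higher and 1 lower (median log2 fold change 0.11), and the lower one was Rps6kl1, a kinase-like gene and not a ribosomal subunit (-0.71, SE 0.08). Rps27, a subunit of the small ribosome, had 1.72, 7.999, 1.53, 2.07 and 19.8 CPM in Chd7iKO and 1.29 to 2.09 CPM in Control libraries. Its call (log2 fold change 1.89, SE 0.55) rested on Chd7iKO 2 and 5, had an edgeR adjusted p of 0.124 without Chd7iKO 5, and is uncertain because ribosomal genes have near-identical copies. When single libraries were left out the number of higher ribosomal genes ranged between 0 (without Chd7iKO 5) and 17 (without Chd7iKO 1), and limma voom called 22. A fit with the replicate number as a block called 15 higher, and 13 of the 41 had an unadjusted p under 0.05 by edgeR. Of 17 initiation factors 2 were higher and 1 lower, Eif4g1, the scaffold of the cap complex (0.19, SE 0.04), and Eif5 (0.22, SE 0.05) being the higher ones. Of 17 tRNA synthetases 1 was higher, the valine enzyme Vars (0.31, SE 0.05), and 1 lower.

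The calls among transcription and RNA genes are set against background shares of 15.8% higher and 13.8% lower. Of 24 general transcription factors and Mediator subunits 1 was lower, Taf9b of TFIID (log2 fold change -0.21, SE 0.05), and of 8 RNA polymerase subunits 1 was higher, Polr1e of polymerase I (0.41, SE 0.09). Of 42 splicing and RNA-binding genes 6 were higher, including Rbm43 (0.68, SE 0.11), the Sm-like protein Lsm2 (0.49, SE 0.10) and Sf3b3 of the U2 particle's SF3B complex (0.25, SE 0.05). The count was 3 without Chd7iKO 3, 10 without Chd7iKO 1 and 11 without Control 6. Of 21 RNA helicases 3 were higher, Ddx58 and Dhx58 above and Ddx20, the gemin of the SMN complex (0.35, SE 0.09). Of 6 nucleoporins 4 were higher (median 0.30), among them Nup205 with 97.1 to 107 CPM in Chd7iKO and 72.4 to 87.4 CPM in Control libraries (0.34, SE 0.05), Nup93 (0.28, SE 0.06) and Nup43 (0.52, SE 0.11).

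Chromatin factors moved little between the groups. Of 13 histone-modifying enzymes edgeR called 0, with 0 at an unadjusted p under 0.05, 0 by DESeq2 and 2 by limma voom. Within the Control group they were split. Their mean log2 CPM was 5.12, 5.14 and 5.18 in Controls 1, 5 and 6, and 5.73 to 5.88 in all other libraries. The Y-linked demethylase Kdm5d had 0, 0 and 0.0558 CPM in these Controls, and the part of sex in the split was not tested. Of 9 remodeller genes 1 was higher, Arid3a, a DNA-binding ARID protein, with 4.55 to 5.91 CPM in Chd7iKO and 3.36 to 5.15 CPM in Control libraries (log2 fold change 0.40, SE 0.13). Its call was lost under 9 of 21 alternatives run at a threshold of 0.05. Of 143 zinc finger factors 3 were higher and 12 lower (median -0.08), and the lower count was 20 without Chd7iKO 1, 6 without Chd7iKO 2 or 5, and 7 without Chd7iKO 3 or 4. They included Zfp488, a cofactor of oligodendrocyte differentiation (-0.41, SE 0.07), Zfp677 (-0.52, SE 0.12) and, among those higher, Zfp385a (0.40, SE 0.07). These shares are again at or under the background.

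**Figure D3:**
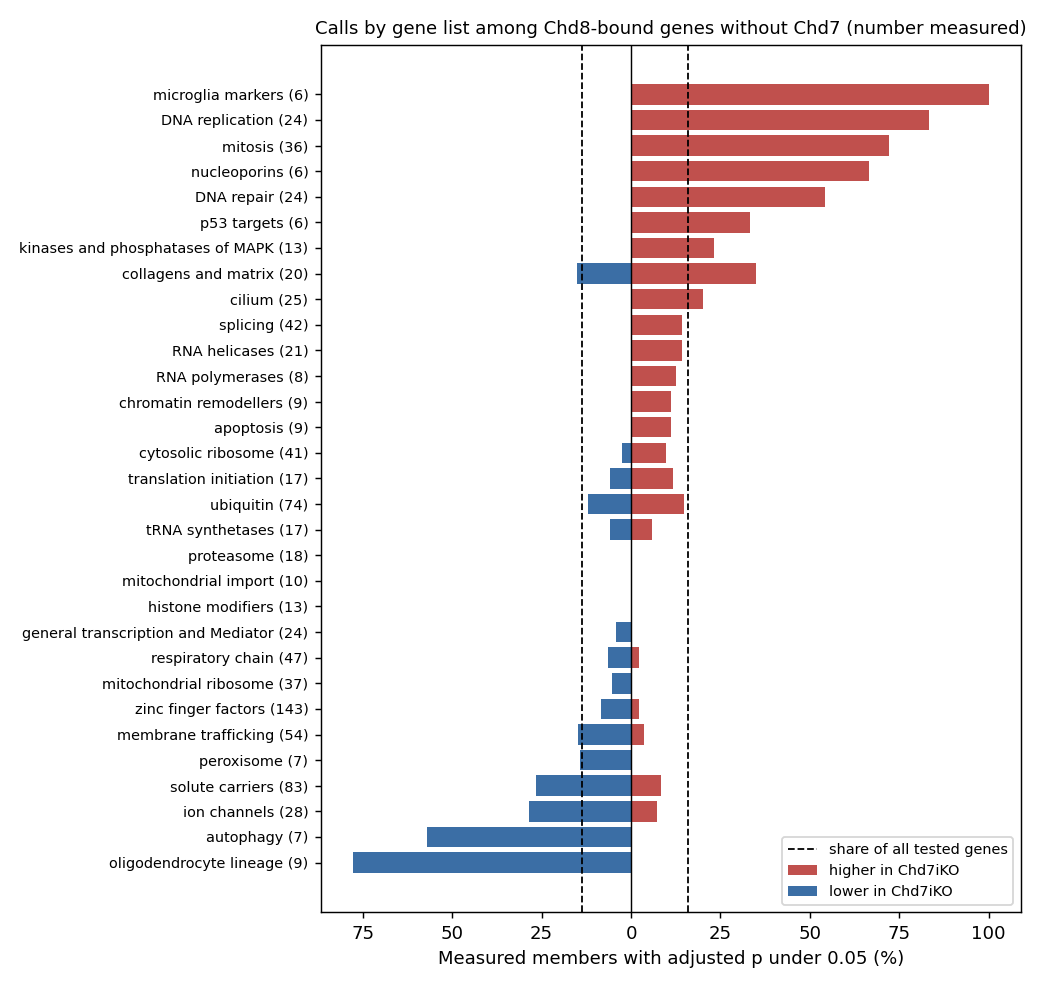
Share of measured Chd8-bound genes without Chd7 called higher (right, red) and lower (left, blue) in Chd7iKO libraries, in percent, for each gene list with at least 5 measured genes (number in brackets), with dashed lines at the shares of all tested genes, 15.8% higher and 13.8% lower. Microglial, replication, mitosis, nucleoporin and repair genes reach furthest to the right, and oligodendrocyte lineage and autophagy genes furthest to the left.

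Cell division genes rose together, where the background share of higher genes was 15.8%. Of 24 replication genes 20 were higher (median log2 fold change 0.57), including Mcm4, a subunit of the replicative helicase, with 89.5, 116, 130, 125 and 124 CPM in Chd7iKO and 48.3 to 94.3 CPM (median 64.7) in Control libraries (0.84, SE 0.15). Mcm10, which helps to start the helicase, had 17.8, 23.7, 26.8, 19.2 and 21.9 CPM in Chd7iKO and 5.35 to 15.1 CPM (median 10.7) in Control libraries (1.10, SE 0.20), and Rpa2, of the protein that coats single-stranded DNA, rose as well (0.58, SE 0.11). For Mcm4 the groups overlapped through Chd7iKO 1 and Control 6, and for Mcm10 they did not. Without Chd7iKO 4 and 5, 6 of the 24 passed the test. Of 36 mitosis genes 26 were higher (median 0.68), and 20 without Chd7iKO 4 and 5. They included the kinase Aurkb with 50.02, 54.3, 59.4, 50.4 and 51.9 CPM in Chd7iKO and 23.8 to 36.9 CPM (median 28.7) in Control libraries (0.83, SE 0.10, adjusted p by edgeR = 0.000107). The kinesin Kif18b (0.85, SE 0.11) and the phosphatase Cdc25a (0.47, SE 0.06) rose too.

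Among 24 DNA repair genes 13 were higher (median log2 fold change 0.31), and 8 without Chd7iKO 4 and 5. The background share of higher genes, over all libraries, was 15.8%. Msh6, of mismatch repair, had 49.0, 62.7, 64.8, 61.0 and 64.7 CPM in Chd7iKO and 34.4 to 48.6 CPM (median 42.7) in Control libraries (0.50, SE 0.08). Chek1, the checkpoint kinase of stalled replication, had 15.7, 21.6, 24.7, 20.6 and 22.8 CPM in Chd7iKO and 6.78 to 16.6 CPM (median 11.4) in Control libraries (0.90, SE 0.18). Ercc6l, a translocase of mitotic chromosomes caught by the repair name stem, had 14.4, 19.1, 19.7, 18.7 and 18.8 CPM in Chd7iKO and 5.08 to 11.6 CPM (median 7.37) in Control libraries (1.18, SE 0.17). Chd7iKO 1 was the lowest Chd7iKO library for all 3, and it fell below Control 6 for Chek1. Outside the list, 16 of 24 replication genes, 28 of 40 mitosis genes and 16 of 49 repair genes of the same name stems were higher too.

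For the p53, apoptosis and MAPK genes on the list the background share of higher genes was again 15.8%. Of 6 p53 targets 2 were higher, Cdkn1a above and Phlda3, which restrains Akt, with 38.3, 38.4, 38.7, 37.2 and 38.5 CPM in Chd7iKO and 14.6 to 30.4 CPM (median 16.7) in Control libraries (log2 fold change 1.01, SE 0.15, adjusted p by edgeR = 0.000473). The 5 Chd7iKO values were nearly equal and all above the Control libraries. Of 9 apoptosis genes 1 was higher, Birc3, which inhibits apoptosis (0.96, SE 0.19). Of 13 MAPK kinases and phosphatases 3 were higher, including the p38 kinase Mapk12 (0.70, SE 0.15) and the phosphatase Dusp18 (0.26, SE 0.06). Among genes outside the list, 18 of 24 p53 targets were higher and 1 lower (median 0.77). There 9 of 20 apoptosis genes were higher and 0 lower, and 8 of 53 MAPK genes were higher and 7 lower.

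Of 9 oligodendrocyte lineage genes on the list 7 were lower (median log2 fold change -0.43), where the background was 13.8% lower. Outside the list 19 of 31 lineage genes were lower too (median -0.41). On the list 7 or 8 were lower under each of the alternatives run at a threshold of 0.05. Vcan, a proteoglycan of precursors, had 751, 675, 652, 624 and 574 CPM in Chd7iKO and 863 to 1213 CPM (median 1106) in Control libraries (-0.74, SE 0.09, adjusted p by edgeR = 9.81e-05). Bmp4, a secreted factor of newly committed cells, had 48.7, 59.6, 51.4, 66.4 and 51.6 CPM in Chd7iKO and 74.9 to 93.8 CPM (median 88.9) in Control libraries (-0.64, SE 0.08), and the proteoglycan Cspg5 had 995 to 1145 CPM in Chd7iKO and 1313 to 1491 CPM in Control libraries (-0.41, SE 0.05). No library of either group overlapped the other in these 3 genes. The myelin enzyme Cnp (-0.43), the sulfatide synthase Gal3st1 (-0.47), Tmem88b (-0.45) and Zfp488 above were lower as well. Mog, a late myelin protein, and Sox4 did not pass the test. The 4 cholesterol synthesis genes on the list gave 0 calls by edgeR, DESeq2 and limma voom, and 0 at an unadjusted p under 0.05.

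For transporters and channels the background was again 13.8% lower and 15.8% higher. Of 83 solute carriers 22 were lower and 7 higher (median log2 fold change -0.07), against 27 lower and 31 higher of 181 measured solute carriers outside the list. Slc27a4, a fatty acid transporter, had 87.4 to 104 CPM in Chd7iKO and 115 to 134 CPM in Control libraries (-0.37, SE 0.06). The arginine transporter Slc7a1 had 162, 222, 197, 242 and 234 CPM in Chd7iKO and 106 to 170 CPM (median 136) in Control libraries (0.61, SE 0.11). The lower count was 14 without Chd7iKO 5 and 7 without Chd7iKO 4 and 5, and the higher count was 4 without Control 5 and 3 without Chd7iKO 4 or 5. Of 28 ion channel genes 8 were lower and 2 higher (median -0.13), and of 91 ion channel genes outside the list 17 were lower and 7 higher (median -0.11). The lower ones on the list included the sodium channels Scn2a1 (-0.46, SE 0.06) and Scn3a (-0.42, SE 0.06), Cacng7, which modulates AMPA receptors (-0.32, SE 0.05), and Kcnj3 above.

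The next lists are set against the same background of 13.8% lower and 15.8% higher. Of 54 trafficking genes 8 were lower and 2 higher, against 27 lower and 9 higher of 141 outside the list. The lower count on the list was 5 without Chd7iKO 1 or Control 4 or 7, 4 without Chd7iKO 2 and 3 without Chd7iKO 5. Rab33a, a small GTPase, had 32.3 to 39.9 CPM in Chd7iKO and 51.0 to 59.5 CPM in Control libraries (log2 fold change -0.59, SE 0.06, adjusted p by edgeR = 5.13e-05). Of 7 autophagy genes on the list 4 were lower (median -0.15), and 2 without Chd7iKO 4 and 5, while outside it 1 of 22 was lower (median -0.11). Gabarapl1, which coats autophagosomes, had 127 to 147 CPM in Chd7iKO and 154 to 195 CPM in Control libraries (-0.33, SE 0.06), and the kinase Ulk2 (-0.21, SE 0.05) and Wipi2 (-0.20, SE 0.05) act earlier in the same pathway. Of 7 peroxisome genes 1 was lower, and of 25 cilium and centrosome genes 5 were higher, with Cep192, a scaffold of centrosome maturation, at 59.6 to 69.1 CPM in Chd7iKO and 35.5 to 49.9 CPM in Control libraries (0.46, SE 0.08). The cilium count was 1 without Chd7iKO 2 or 5, 3 without Chd7iKO 3 and 2 without Control 4. Outside the list 3 of 10 peroxisome genes were lower, and of 69 cilium and centrosome genes 12 were higher and 2 lower.

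Of 74 ubiquitin genes 11 were higher and 9 lower, near the background of 15.8% higher and 13.8% lower. Outside the list 18 of 184 ubiquitin genes were higher and 32 lower. On the list the lower count was 3 without Chd7iKO 5. Beside Usp18 and Trim25, the higher ones included Ube2c, the conjugating enzyme of the anaphase complex, with 60.2, 79.1, 82.7, 82.3 and 84.8 CPM in Chd7iKO and 32.1 to 62.1 CPM (median 43.0) in Control libraries (log2 fold change 0.84, SE 0.14). Chd7iKO 1 and Control 6 overlapped for this gene. Of 20 collagen and matrix genes on the list 7 were higher and 3 lower, against 29 higher and 8 lower of 72 outside it. The higher count on the list was 2 without Chd7iKO 5, 3 without Chd7iKO 2 and 4 without Chd7iKO 4 or Control 2. Col16a1 (0.48, SE 0.09) rose, while Col4a3 of basement membranes had 2.14 to 2.44 CPM in Chd7iKO and 3.44 to 4.36 CPM in Control libraries (-0.70, SE 0.11) and Adam5 fell by 0.93 (log2, SE 0.15). Mural markers were higher in the same libraries, and their part was not tested.

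Of 6 microglial genes on the list 6 were higher (median log2 fold change 0.74), 3 without Chd7iKO 5 and 1 without Chd7iKO 4 and 5. The background share of higher genes was 15.8%, and 8 of 12 microglial genes outside the list were higher too (median 0.59). The lysosomal protein Cd68 had 26.4, 25.7, 29.5, 30.3 and 26.3 CPM in Chd7iKO and 11.4 to 23.2 CPM (median 16.8) in Control libraries (0.71, SE 0.16), Fcer1g, a signalling chain of Fc receptors, rose by 0.88 (log2, SE 0.20), and Cd14, the endotoxin co-receptor, had 6.98 to 11.6 CPM in Chd7iKO and 3.01 to 8.43 CPM in Control libraries (0.89, SE 0.24). Of 2 endothelial and mural genes, Col1a1 (1.22) and Vtn (0.81), both were higher, as were 12 of 14 such genes outside the list. Of 4 astrocyte genes edgeR, DESeq2 and limma voom called 0, with 0 at an unadjusted p under 0.05, and of 4 neuronal genes 1, Gad1, was lower. These genes are on the binding list of precursors while their transcripts are known from other cells, and the source of the transcripts was not tested.

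The libraries of a group differed in these lists. The mean log2 CPM of the 36 mitosis genes was 5.38 to 5.65 in Chd7iKO libraries, lowest in Chd7iKO 1, and 4.72 to 5.34 in Control libraries, highest in Control 6. For the 24 replication genes Chd7iKO 1 (4.97) lay below Control 6 (5.15) and level with Control 7 (4.97). The oligodendrocyte lineage genes were separate, at 7.06 to 7.22 in Chd7iKO and 7.46 to 7.67 in Control libraries. Among the 571 higher genes, Chd7iKO 1 was the lowest Chd7iKO library in 295 and Control 6 the highest Control library in 270. Among the 474 lower genes, Chd7iKO 5 was the lowest Chd7iKO library in 177 and Control 6 the lowest Control library in 193. Control 6 thus most often stood nearest the Chd7iKO group, and it also had the highest mean of the microglial genes among Control libraries (4.03, against 4.06 to 4.37 in Chd7iKO libraries).

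**Figure D4:**
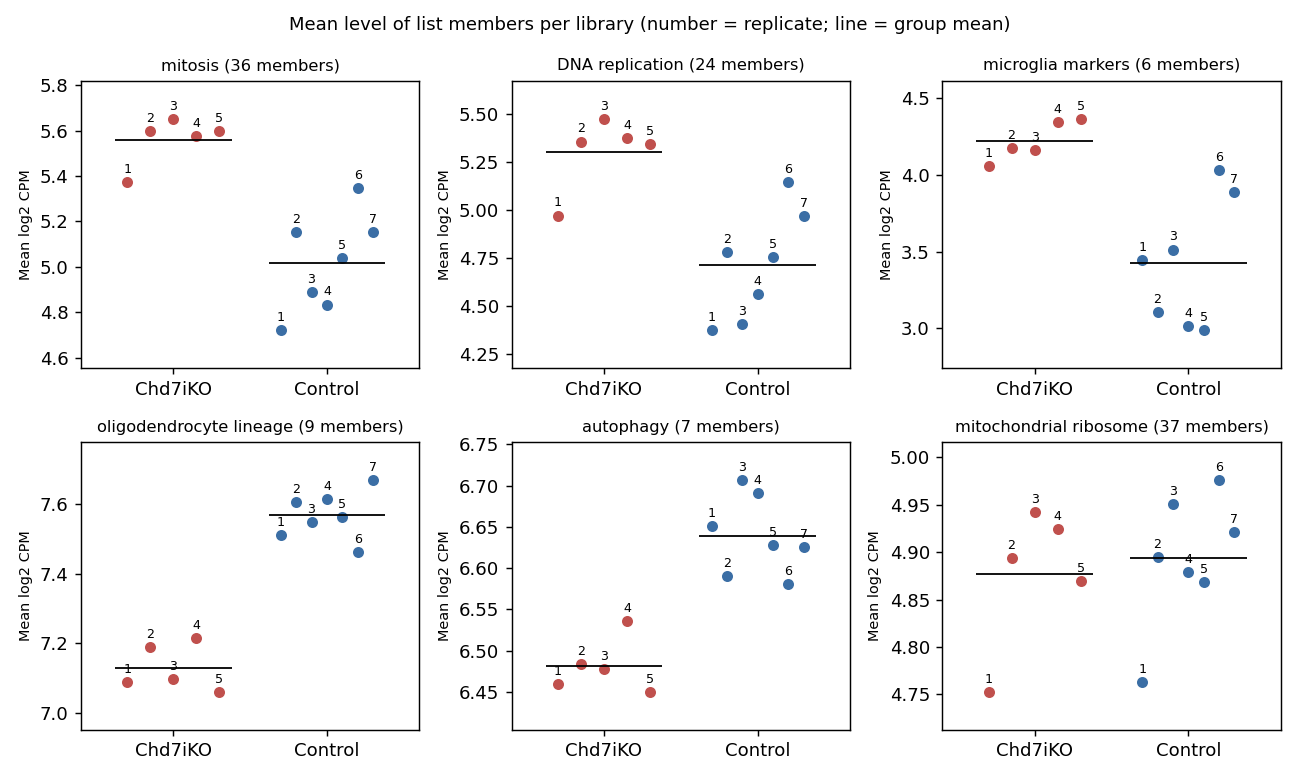
Mean log2 CPM of the measured genes of 6 lists in every library, Chd7iKO left and Control right, with the replicate number above each point and a line at each group mean. Chd7iKO 1 and Control 6 approach each other in mitosis and replication genes, lineage and autophagy genes are separate, and mitochondrial ribosome genes overlap throughout.

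Expression level, gene length and position were described for the same groups of genes, without a test. Per kilobase of exon, their median Control level was 7.36 CPM (quartiles 2.92 and 17.3), against 9.54 CPM for genes with both factors, 3.04 CPM for unlisted genes and 6.58 CPM for all. The median gene span was 18.1 kb, against 31.3 kb with both factors, 20.6 kb for unlisted genes and 25.3 kb for all. Chd8-bound genes without Chd7 were therefore shorter than those with both factors and expressed well above unlisted genes. Of 3582 protein-coding genes with an annotated start, 415 (11.6%) began within 1000 bases of a protein-coding gene on the opposite strand that runs away from it. The share was 11.2% for genes with both factors and 6.38% for unlisted genes. For 229 of the 415 genes the partner was on the same list. How the authors assigned sites to genes is not stated in these sources, so whether 1 site was listed for both partners was not tested.

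The X chromosome carried 168 of the measured genes, 34.4% of all tested genes there, against 27.0% over all genes with a position. Of these, 12 (7.14%) were higher and 33 (19.6%) lower, and of all 489 tested genes on X 10.02% were higher and 19.4% lower. Gucy2f, Pcdh11x, Rab33a and Taf9b are among the lower ones and Ercc6l among the higher. The list holds Xist, the RNA that coats the inactive X, and Kdm5d, a Y-linked histone demethylase, which both depend on the sex of the pups in a library. Xist had 803 to 1417 CPM in Chd7iKO libraries and 2680, 0.930, 462, 737, 3202, 2590 and 1515 CPM in Control libraries 1 to 7. Kdm5d had 24.9 to 35.8 CPM in Chd7iKO libraries. It had 57.0, 39.0, 36.1 and 28.2 CPM in Controls 2, 3, 4 and 7, 0.0558 CPM in Control 6, and 0 in Controls 1 and 5, where 3 counts would be 0.0997 and 0.0901 CPM. Every Chd7iKO library thus held both transcripts, while 4 Control libraries held nearly 1 alone, and the part of sex in the X-linked values was not tested.

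Of 201 autism risk genes that the authors listed, 42 belong to this group, and all 42 were measured. Of these 3 were higher and 3 lower in Chd7iKO cells, with a median log2 fold change of -0.0054. Rad21, a subunit of cohesin, had 400, 398, 392, 408 and 426 CPM in Chd7iKO and 312 to 370 CPM (median 332) in Control libraries (0.26, SE 0.05). The helicase subunit Mcm5 (0.85, SE 0.19) rose with the replication genes, and Chmp2b, of the ESCRT complex that sorts endosomal cargo, had 47.6 to 56.2 CPM in Chd7iKO and 54.8 to 67.9 CPM in Control libraries (-0.26, SE 0.06). These shares lie below the background of 15.8% and 13.8%.

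In the authors' deposited table, 529 of the measured genes were higher and 358 lower at their adjusted p under 0.05. That is 23.5% of these genes, against 26.4% of all genes called in the authors' deposited table. Of the 1045 genes called here, 837 were also called in the authors' deposited table.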

How the data were processed

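RNA sequencing of O4-positive cells from 5 Chd7iKO and 7 Control libraries was used, with groups taken from titles and genotype labels. Per the labels' protocols, libraries were made with a stranded mRNA kit. Tools named in the submitters' processing notes are featureCounts, TopHat2, Bowtie and edgeR, with the build mm10 and no versions or order, and these sources do not state the annotation. The values the authors deposited are estimated counts per gene, unscaled, of which 1.76% (2973 of 169284) were not whole, so genes with near-identical copies are uncertain. The table also holds the authors' log2 fold changes with their p-values, used here only to count calls, and lists of bound genes as symbols without values. In the table, 12 gene names appear as dates and were never named.

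Estimated counts were rounded and tested with edgeR 4.0.16 (R 4.3.3), by the quasi-likelihood F-test with TMM scaling, no covariate, all 12 libraries, two-sided, Benjamini-Hochberg adjustment over all 14107 genes and a threshold of 0.05. The expression filter removed 0 genes. Log2 CPM used a prior count of 2. No pair among 31 within-group pairs agreed within sampling noise (lowest chi-square per degree of freedom 9.13), and the biological coefficient of variation was 14.7%. Code was tested on simulated counts. Alternatives were RLE scaling, library totals, DESeq2 1.42.0, limma 3.58.1 voom, no filter, a threshold of 0.01, a replicate block, leaving out libraries, and other matching of symbols. The fit over the same 10 libraries without the block was added after seeing the data.

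Matched unlisted genes were weighted over 10 bins of mean log2 CPM. Gene lengths and positions came from GENCODE M21 (GRCm38), with a length for 3673 of the 3777 genes. Promoters were found for 3020 of the 3777 genes (80.0% when rounded, just under the 80% needed), so a comparison of promoter GC content or motifs over the whole list is void and was not made. Named genes are Chd7, Chd8, and called genes whose mean reached 1 CPM and that were among the 8 largest rises, the 8 largest falls, the 6 smallest p, or the 3 smallest p of a gene list with at least 5 measured genes. Cnp, Gal3st1, Tmem88b, Mog, Sox4, Col1a1, Vtn, Gad1, Xist and Kdm5d were named after their values were seen. Not every gene that the rule selects is reported here. The genes described and the 35 gene lists, taken by name stems or fixed symbols, were chosen with earlier results of these data known.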

Additional observations from a re-analysis of the deposited data

Results flagged for a closer look

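In 14 named genes a single library stood apart from the rest of its group, with a gap to its neighbour beyond Dixon's limit; chance alone would give about 1 in 20 groups. Among Chd7iKO libraries, Chd7iKO 1 was lowest for Msh6 (49.0 CPM), Ube2c (60.2 CPM), Ercc6l (14.4 CPM) and Mcm5 (92.8 CPM), all genes of replication, repair or division, and highest for Dusp18 (39.8 CPM). Chd7iKO 4 was highest for Pcdh11x (143 CPM) and Ndufv3 (57.0 CPM) and lowest for Phlda3 (37.2 CPM). Chd7iKO 5 was highest for Zfp677 (3.99 CPM), and Chd7iKO 2 was lowest for Arid3a (4.55 CPM). Among Control libraries, Control 1 was lowest for Mrps7 (79.3 CPM), Taf9b (80.3 CPM) and Msh6 (34.4 CPM). Control 3 was highest for Phlda3 (30.4 CPM) and lowest for Cep192 (35.5 CPM), and Control 6 was highest for Isg15 (1.62 CPM). The range of the Chd7iKO values for Phlda3 was so narrow that a small gap was enough.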

How the results depend on the processing

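The counts of higher and lower Chd8-bound genes without Chd7 kept within 1.5 times of their values under RLE scaling, library totals, DESeq2 and the replicate block. The same held when all Chd8-only symbols were kept. Without the filter, or with matching by letter case, the counts could not differ, since neither changed the genes used. With limma voom they were 859 higher and 762 lower (6462 over all genes), and at a threshold of 0.01 they were 299 and 214 (2056 over all genes). Leaving out single libraries gave 373 to 637 higher and 305 to 518 lower genes, and 2690 to 4612 over all genes. The lowest counts came without Chd7iKO 5, where 677 of 678 calls were also calls of the full set in the same direction. Without Chd7iKO 4 and 5 the counts were 241 higher and 186 lower (1747 over all genes), with fewer libraries, and 419 of the 427 calls were shared. Without Controls 3 and 6 they were 600 and 453. The median log2 fold change stayed between -0.0088 and 0.03 under these settings.

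The replicate numbers do not pair the samples, since the same-number correlations of deviations were 0.376, -0.12, 0.084, -0.127 and -0.177. With the replicate number as a block over 10 libraries 621 genes were higher and 586 lower, and without the block over the same libraries 584 and 565. Chd7iKO 1 correlated best with its own number and the other 4 Chd7iKO libraries did not.

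Of 93 named genes 73 kept their call under all 21 alternatives run at a threshold of 0.05 and 20 lost it under at least 1. The threshold of 0.01 was not among these 21. The fit with no filter was among them and could not differ, since the filter removed 0 genes. Among those printed with values, Eif4g1 (adjusted p = 0.0563), Eif5 (0.0665), Taf9b (0.105), Wipi2 (0.0636), Fcer1g (0.0563) and Cd14 (0.113) lost it, of these 21, without Chd7iKO 4 and 5 only, by edgeR. Of 23 list counts of 1 to 4 genes, 14 moved by more than 1.5 times without some single library. The direction reversed for Chd7 and Chd8, which were not called under any setting. The log2 fold change of Chd7 was -0.062 with limma voom and -0.053 without Controls 3 and 6, and -0.029 to 0.090 without single libraries, below 0 without Control 3 or Chd7iKO 1. The log2 fold change of Chd8 was 0.020 with library totals and 0.064 without Chd7iKO 4 and 5, and -0.084 to 0.035 without single libraries, above 0 without Control 1 or 5 or Chd7iKO 2, 4 or 5. The cause of these shifts was not tested. Genes under a few CPM rest on few counts and their fold changes are less precise.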
